A study of Mus musculus with 227 samples.

Results

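The 37 genes described here are 2 nuclear noncoding RNAs, Malat1 and Neat1, and 35 protein-coding genes whose products act in pre-mRNA splicing or in the nuclear bodies where splicing factors gather. They were picked by name from a table of 24388 mouse genes, in which all 37 have a row. The list was drawn up with the share of each gene in the cells' RNA already known, both in cells with at least 1000 detected genes and in cells below that number, so the shares and differences below are descriptions and support nothing. A share is a gene's FPKM (a fragment count divided by transcript length and by sequencing depth) divided by the summed FPKM of all mouse genes in that cell. It is given in percent or in ppm (parts in 1000000 of that sum).

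The mice were of strain BL6 and 3 days old (P3), the tissue was long bone, and the cells were sorted on surface antigens and sequenced singly after capture on a Fluidigm C1 chip, with synthetic ERCC spike-in RNAs added. Each gate excluded CD45+ and Ter119+ cells and kept AlphaV+ ones; Tie2 was gated out for mSSC, CSP and THY+ cells and is not named for 6C3+ cells. The mSSC cells were Thy-6C3-CD105-CD200+, the CSP cells Thy-6C3-CD105+, the THY+ cells Thy+6C3-CD105+ and the 6C3+ cells Thy-6C3+CD105+. No animal, culture or capture run is named in the labels, so each population counts as 1 sample and cells are not replicates of it. Ranges are therefore over cells, no p-value is given, and intervals for shares of cells (exact Clopper-Pearson, 95%) cover counting error only.

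Splicing removes introns from pre-mRNA in the spliceosome, a machine built from small nuclear ribonucleoproteins (snRNPs) that recognise the splice sites. SR proteins carry RNA-binding domains and a tail rich in arginine and serine, bind exons and recruit the spliceosome, and kinases such as CLK1 phosphorylate that tail. Malat1 is retained in nuclear speckles, the stores of splicing factors, and Neat1 is the scaffold of paraspeckles. Many genes of SR and related proteins limit their own output by splicing their transcripts into forms that keep an intron or are degraded by nonsense-mediated decay.

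Cells fell into a gene-rich and a gene-poor class at 1000 genes detected at FPKM of at least 1. There were 37 mSSC, 11 CSP, 43 THY+ and 34 6C3+ cells with at least 1000 genes, and 15 CSP, 29 THY+ and 58 6C3+ cells below; no mSSC cell was below. The spike-ins took a median of 20.8% of all FPKM in gene-rich THY+ and 18.9% in gene-rich 6C3+ cells, 97.2% and 96.3% in gene-poor ones, and at most 0.233% in any mSSC or CSP cell. By their sequencing indexes mSSC and CSP cells shared 1 index plate, THY+ cells were on another and 6C3+ cells on another, so population and index plate cannot be told apart except between mSSC and CSP. Of other cell types, 0 of 5 endothelial, 0 of 5 myeloid and 0 of 4 pre-B marker genes were detected in any gene-poor group, and each list was detected in at most 2 cells of any gene-rich group. None of the 4 erythroid genes measured was detected in a gene-poor group, and at most 3 cells of a gene-rich group had one. Pericyte genes were detected in 13 of 37 mSSC, 1 of 11 CSP, 33 of 43 THY+ and 23 of 34 6C3+ gene-rich cells (highest summed share 3.25%, in THY+), and in 1 of 15 CSP, 4 of 29 THY+ and 6 of 58 6C3+ gene-poor cells, where all 5 occurred in 6C3+ (highest 5.26%). Muscle genes were detected in 22 of 37 mSSC, 6 of 11 CSP, 18 of 43 THY+ and 6 of 34 6C3+ gene-rich cells, at summed shares of at most 0.0989%, and in 1 gene-poor cell, a THY+ one. Chondrocyte markers took a median of 4.61% in mSSC, 5.14% in CSP, 0.0806% in THY+ and 1.14% in 6C3+ gene-rich cells. Fibroblast and tendon markers took 0.0456%, 0.000106%, 1.36% and 1.71%, and osteoblast markers 0, 0.0168%, 0 and 0; the part of these differences in the results below was not tested.

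Malat1 lies at chr19:5795690-5802672 on the minus strand of GRCm38 (mm10) as an intergenic noncoding RNA of 6983 bases, 22035 bases from Neat1 (chr19:5824708-5845478, minus strand). Its mature RNA ends not in an added poly(A) tail but at an A-rich tract encoded in the genome, cut from a small RNA that folds like a tRNA. It is shown because Malat1 led the members in every group and, unlike an mRNA, has this tract in place of an added tail. In the annotated transcript it spans bases 6674 to 6691, within the bases 6574 to 6751 printed here (chr19:5795922-5796099, minus strand, 5′ to 3′). Capitals mark the tract.
Malat1: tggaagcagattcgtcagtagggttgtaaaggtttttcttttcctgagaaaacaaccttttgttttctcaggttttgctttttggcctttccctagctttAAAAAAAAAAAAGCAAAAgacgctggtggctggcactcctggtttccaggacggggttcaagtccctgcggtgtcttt
The tract holds a run of 12 A, and no other run of 10 or more A was found in the transcript.

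In gene-rich cells the members together took a median of 0.585% (CSP) to 1.09% (6C3+) of the endogenous FPKM. The lowest, median and highest summed shares were 0.224, 0.931 and 1.59% in mSSC cells. In CSP cells they were 0.438, 0.585 and 1.47%, in THY+ cells 0.299, 0.935 and 6.95%, and in 6C3+ cells 0.337, 1.09 and 2.50%. The ranges of the populations overlapped, and the CSP median was the lowest. A cell of these groups had a median of 24 (mSSC), 25 (CSP), 28 (THY+) or 25.5 (6C3+) members detected.

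Gene-poor cells differed by population. They had a median of 162 genes in CSP, 517 in THY+ and 256 in 6C3+, and lowest cells at 71, 7 and 4. The THY+ cell with 7 genes had 27.6 endogenous FPKM and a summed member share of 0. The 6C3+ cell with 4 genes had 12.6 endogenous FPKM, 0 members detected and a summed share of 11.3%, so shares of such cells rest on very little signal. In gene-poor THY+ cells the summed share was 0, 4.10 and 15.6%, and in gene-poor 6C3+ cells 0.0435, 4.18 and 22.1%, with medians above those of the gene-rich cells of the same population. In gene-poor CSP cells it was 0.0141, 0.375 and 1.87%, with a median below that of gene-rich CSP cells. Leaving out table rows for transcripts under 200 bases brought the gene-poor CSP median to 1.14%, above the gene-rich 0.588% under the same setting. Most of the sum in gene-poor cells was Malat1: it made up a median of 75.6% of the members' sum in THY+ and 75.9% in 6C3+ cells, against 47.3% and 42.7% in the gene-rich cells. The 35 coding members alone took a median of 0.714% and 0.786% in gene-poor THY+ and 6C3+ cells, and 0.499% and 0.541% in gene-rich ones. The 3 cells just below the split had 920, 926 and 978 genes and summed shares of 3.70%, 6.14% and 1.05%. The 3 just above had 1031, 1164 and 1202 genes and shares of 2.50%, 0.970% and 6.36%.

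**Figure D1:**
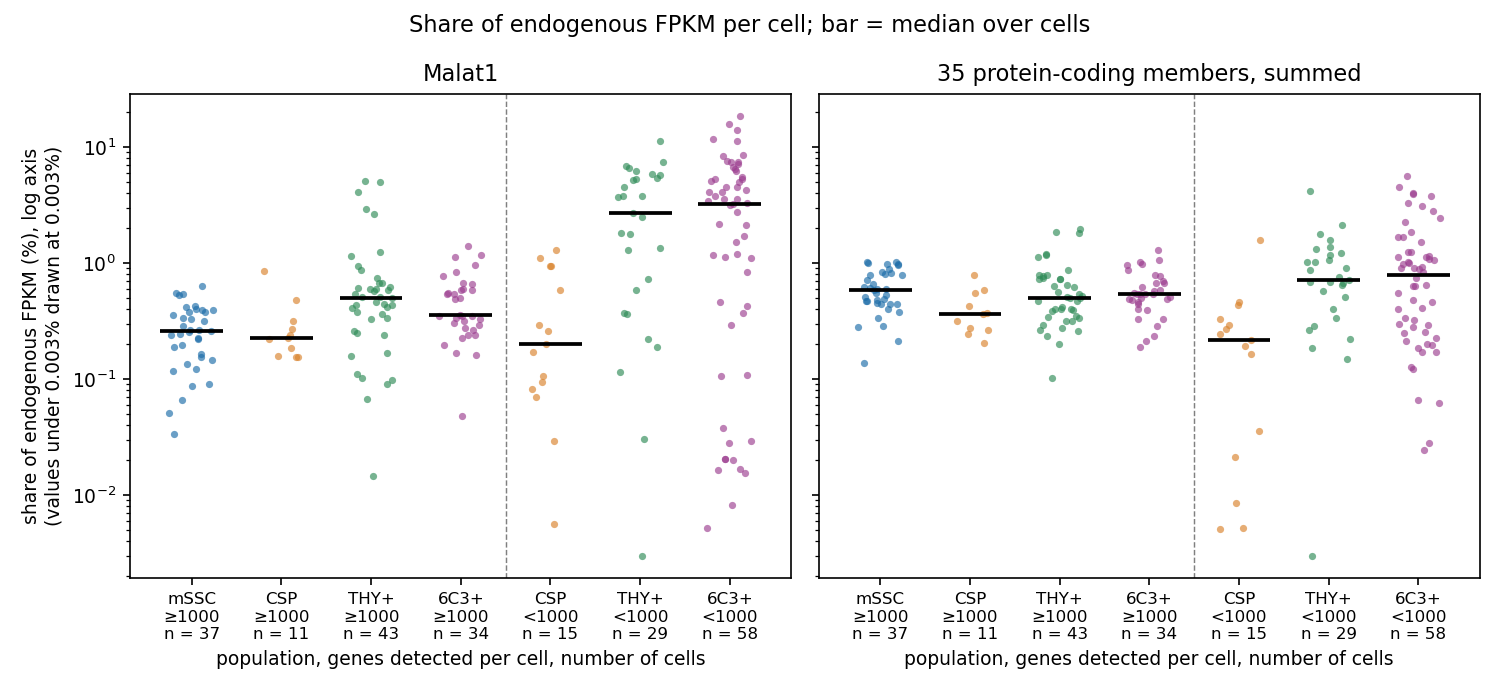
Share of endogenous FPKM per cell (percent, log axis) of Malat1 (left) and of the 35 protein-coding members summed (right), by population and gene number; each point is 1 cell, bars are medians, and values under 0.003% are drawn at 0.003%. The Malat1 medians of gene-poor THY+ (2.72%) and 6C3+ cells (3.26%) lie above all other groups, while the coding medians range from 0.215% to 0.786%.

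Malat1 had the highest median share of all members in each of the 7 groups. Its share in gene-rich mSSC cells ran from 336 to 6403 ppm with a median of 2587, and it was detected in 37 of 37 cells (interval 90.5% to 100%). In CSP cells its lowest, median and highest shares were 1540.2, 2239 and 8507 ppm, in THY+ cells 145, 4949.8 and 51113, and in 6C3+ cells 482, 3535 and 14152. The 4 ranges overlapped, and no neighbours in the order of medians (CSP, mSSC, 6C3+, THY+) were apart by more than their spread. By median share Malat1 stood at rank 40 of 24388 genes in mSSC, 51 in CSP, 10 in THY+ and 17 in 6C3+. Among gene-poor cells it stood at rank 5 in CSP and 2 in both THY+ and 6C3+.

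Neat1 had lower medians than Malat1 in all 4 populations. Its lowest, median and highest shares in ppm were 0, 82.1 and 664 in mSSC, 1.66, 41.4 and 637 in CSP, 0, 41.4 and 4685 in THY+ and 0, 56.3 and 7484 in 6C3+ gene-rich cells. Detection counts were 29 of 37 mSSC cells (78.4%, 61.8 to 90.2), 11 of 11 CSP cells, 32 of 43 THY+ cells and 30 of 34 6C3+ cells. The highest THY+ and 6C3+ cells lay above every mSSC and CSP cell, while the 4 medians were within a factor of 2 of one another.

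Across gene-rich cells, the genes whose share went most with that of Malat1 differed by population. Values are Spearman rho, over genes seen in 50% or more of the cells. Shares within a cell have a common denominator, and cells of a population share a plate. Each leading gene is the highest of 1462 (mSSC), 2085 (CSP), 1597 (THY+) or 1704 (6C3+) values over few cells. How high such a maximum would be without any link was not tested, so nothing is read from which genes lead. In the 37 mSSC cells the closest were Kcnq1ot1, an imprinted noncoding RNA (rho 0.60), and Pde4dip (0.58), and the closest member was Luc7l (0.50). In the 43 THY+ cells they were Meg3, another imprinted noncoding RNA (0.64), and Gm20594 (0.55), and the closest member was Neat1 (0.40). In the 34 6C3+ cells they were Ogt (0.61), the enzyme that adds O-GlcNAc to nuclear proteins, Sfpq (0.57), a paraspeckle protein, and the member Ccnl2 (0.57). In the 11 CSP cells the closest was Col11a2 (0.85), and the closest member was Nktr (0.70). In THY+ cells the Malat1 share also went with the spike-in share (0.72) and against gene number (-0.52), with values of 0.20 and -0.17 in 6C3+, -0.01 and -0.55 in CSP and -0.03 and 0.06 in mSSC cells. The Malat1 share and the summed share of the coding members had a rho of 0.39 in mSSC, 0.38 in CSP, 0.46 in THY+ and 0.55 in 6C3+ cells. Over pairs of single members the median rho was 0.05 among 28 members in mSSC and 0.02 among all 1463 genes, 0.07 and 0.07 in CSP, 0.07 and 0.08 in THY+, and 0.06 and 0.03 in 6C3+ cells.

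Srsf2 (chr11:116849901-116853094, minus strand), which encodes the speckle protein SC35, had the highest median share of the 9 SR protein genes. Here and for the genes after it, 3 values given for a population are its lowest, median and highest cell. Its lowest, median and highest shares in gene-rich cells were 0, 1134 and 5769 ppm in mSSC, 0, 614 and 3854 in CSP, 0, 448 and 11972 in THY+ and 0, 671 and 4952 in 6C3+. The mSSC median was the highest, and the ranges overlapped. An exon of Srsf2 overlaps exons of Mfsd11 and Mettl23 on the other strand; whether counting used strand is not given in the sources used here, and without strand reads of such partners cannot be told apart. Srsf4, Ddx17, Acin1, Son, Hnrnpu and Nktr have opposite-strand overlaps of this kind as well, and Ddx5 holds the microRNA gene Mir3064 on its own strand.

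Srsf5, another SR protein, had medians of 159 (mSSC), 158 (CSP), 135 (THY+) and 303 (6C3+) ppm, with ranges of 0 to 1559, 0 to 319, 0 to 1059 and 0 to 1491. Srsf3, the smallest SR protein and an export adaptor, had medians of 51.9, 55, 139 and 210.3 in the same order, with highest cells at 1163, 287, 924 and 752 and lowest cells at 0 in all 4. Both were thus highest in 6C3+ cells by median, unlike Srsf2. Srsf11, an SR-related protein that binds U2AF, had medians of 75.6, 136, 144 and 65.7 ppm, with highest cells at 875, 726, 2269.9 and 1335. Srsf7 medians ran from 14.7 (THY+) to 60.3 (6C3+), Srsf10 from 16.3 (THY+) to 52.8 (6C3+), and Srsf6 from 0.233 (CSP) to 9.34 (THY+). Srsf1, the founding SR protein, was detected in 11 of 37 mSSC, 5 of 11 CSP, 17 of 43 THY+ and 13 of 34 6C3+ cells, and Srsf4 in 8 of 37, 2 of 11, 14 of 43 and 11 of 34.

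Tra2b, an SR-like activator that binds exonic purine-rich sequences, was the member with the largest difference between CSP cells and both mSSC and 6C3+ cells. Its lowest, median and highest shares were 0, 134 and 1822 ppm in mSSC, 0, 19.5 and 258 in CSP, 0, 169 and 1659 in THY+ and 0, 385 and 1794 in 6C3+ cells. All 11 CSP cells lay below the 6C3+ median, and the ranges of the 4 populations overlapped. Its paralogue Tra2a was detected in 14 of 37, 3 of 11, 21 of 43 and 17 of 34 cells, with medians of at most 2.25 ppm.

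Among the RNA-binding motif proteins, Rbm39, a U2AF-related factor, had the highest median in CSP, THY+ and 6C3+ cells, while in mSSC Rbm25 (49.1 ppm) was above it. Its shares were 0, 30.04 and 1663 ppm in mSSC, 4.25, 176 and 2534 in CSP, 0, 167 and 5120.3 in THY+ and 0, 126 and 1421 in 6C3+ cells, lowest in mSSC by median. Rbm25, a partner of the U1 proteins, had medians from 31.6 (CSP) to 66.9 (THY+). Rbm5 and Rbm6, related regulators of alternative splicing, are neighbours on chromosome 9, 2562 bases apart. Rbm5 had shares of 0, 7.04 and 697 in mSSC, 0, 60.2 and 298 in CSP, 0, 38.7 and 1569.9 in THY+ and 0, 42.1 and 784 in 6C3+ cells. Rbm6 was detected in 22 of 43 THY+ cells (highest 133 ppm) and 8 of 34 6C3+ cells (highest 760.2).

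The paralogous DEAD-box helicases Ddx5 and Ddx17, which remodel RNA during splicing and act as transcription coregulators, were at different levels. Ddx5 shares were 0, 115 and 801 ppm in mSSC, 0, 57.2 and 265 in CSP, 0, 98.9 and 1525 in THY+ and 1.88, 203 and 915 in 6C3+ cells. Ddx17 shares were 0, 1.18 and 301 in mSSC, 0, 9.28 and 169.7 in CSP, 0, 29.7 and 714 in THY+ and 0, 48.2 and 444 in 6C3+ cells. For both genes the 6C3+ median was the highest of the 4, and no range stood apart. Ddx17 was detected in 18 of 37 mSSC cells (48.6%, 31.9 to 65.6) and 26 of 34 6C3+ cells (76.5%, 58.8 to 89.3).

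The 3 LUC7-like genes encode proteins of the U1 snRNP that influence 5′ splice site choice. Luc7l2 had the highest median over all gene-rich cells pooled but in no single population: Luc7l3 was highest in mSSC and THY+, and Luc7l in CSP and 6C3+. Luc7l2 had shares of 0, 4.55 and 248 ppm in mSSC, 0.835, 19.7 and 143 in CSP, 0, 9.66 and 304 in THY+ and 0, 9.51 and 209 in 6C3+ cells; 10 of 11 CSP cells had it detected. Luc7l3 had shares of 0, 7.32 and 1580.0, 0, 20.2 and 229, 0, 20.5 and 2068 and 0, 1.26 and 525 in the same order, and was detected in 32 of 43 THY+ (74.4%, 58.8 to 86.5) but 13 of 34 6C3+ cells (38.2%, 22.2 to 56.4). Luc7l medians ran from 7.10 (mSSC) to 33.3 (CSP).

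Clk1, the kinase of SR proteins, had the highest median of the 5 cyclins and kinases. Its shares were 0, 537 and 2643 ppm in mSSC, 0, 103.7 and 1662 in CSP, 0, 105 and 1685 in THY+ and 0, 344 and 2244 in 6C3+ cells, so that the mSSC and 6C3+ medians lay above the CSP and THY+ ones while the ranges overlapped. Ccnl1, a cyclin L that binds CDK11, had shares of 0, 59.2 and 1064, 0, 7.20 and 327, 0, 80.7 and 7579 and 0, 95.6 and 1659 in the same order, and was lowest in CSP by median. Ccnl2 medians ran from 1.61 (CSP) to 23 (6C3+). Clk4, a close relative of Clk1, had medians from 0.539 (THY+) to 16.3 (6C3+). Prpf4b, a kinase of the spliceosome, had shares of 0, 0.687 and 226 in mSSC, 0, 1.17 and 60.8 in CSP, 0, 9.63 and 902 in THY+ and 0, 6.66 and 534 in 6C3+ cells.

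Son, a core protein of nuclear speckles, had the highest median of the 7 scaffold and matrix genes in mSSC, THY+ and 6C3+ cells, while in CSP Srrm1 (48.96 ppm) was above it. Its shares were 0, 53.9 and 349 ppm in mSSC, 10.4, 29.5 and 193 in CSP, 2.58, 156 and 1099 in THY+ and 2.36, 64.4 and 817 in 6C3+ cells, and it was detected in 36 of 37, 11 of 11, 42 of 43 and 33 of 34 cells. Srrm1 and Srrm2 encode large SR-related matrix proteins, of which SRRM2 builds speckles together with SON. Srrm1 medians ran from 40.1 (mSSC) to 125 (THY+), and Srrm2 medians from 7.20 (mSSC) to 20.2 (CSP). Pnisr, an SR-related speckle protein, had shares of 0, 17.9 and 999 in mSSC, 0, 0 and 89.6 in CSP, 0, 28.3 and 563 in THY+ and 0, 31.4 and 493 in 6C3+ cells; detection was 4 of 11 in CSP against 25 of 34 in 6C3+. Acin1, a protein of the exon junction complex periphery, had medians from 0 (CSP) to 21.8 (6C3+), and Nktr, an RS-rich cyclophilin, from 1.797 (CSP) to 21.6 (6C3+). Pnn (pinin), a desmosome and speckle protein, was detected in 14 of 37, 2 of 11, 17 of 43 and 14 of 34 cells.

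Of the remaining members, Snrnp70, the 70K protein of the U1 snRNP, had shares of 0, 56.6 and 948 ppm in mSSC, 0, 64.5 and 212 in CSP, 0, 47.9 and 841 in THY+ and 0, 37.4 and 386 in 6C3+ cells. Hnrnpu, a nuclear matrix hnRNP that binds chromatin-associated RNA, had shares of 0, 114 and 889.8, 17.4, 107 and 1063, 0, 141 and 1191 and 0, 222 and 899 in the same order and was among the most widely detected, in 33 of 37, 11 of 11, 42 of 43 and 32 of 34 cells. U2af2, the large subunit of the factor that reads the polypyrimidine tract, was the member detected in the fewest gene-rich cells: 6 of 37 mSSC, 5 of 11 CSP, 16 of 43 THY+ and 7 of 34 6C3+.

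**Figure D2:**
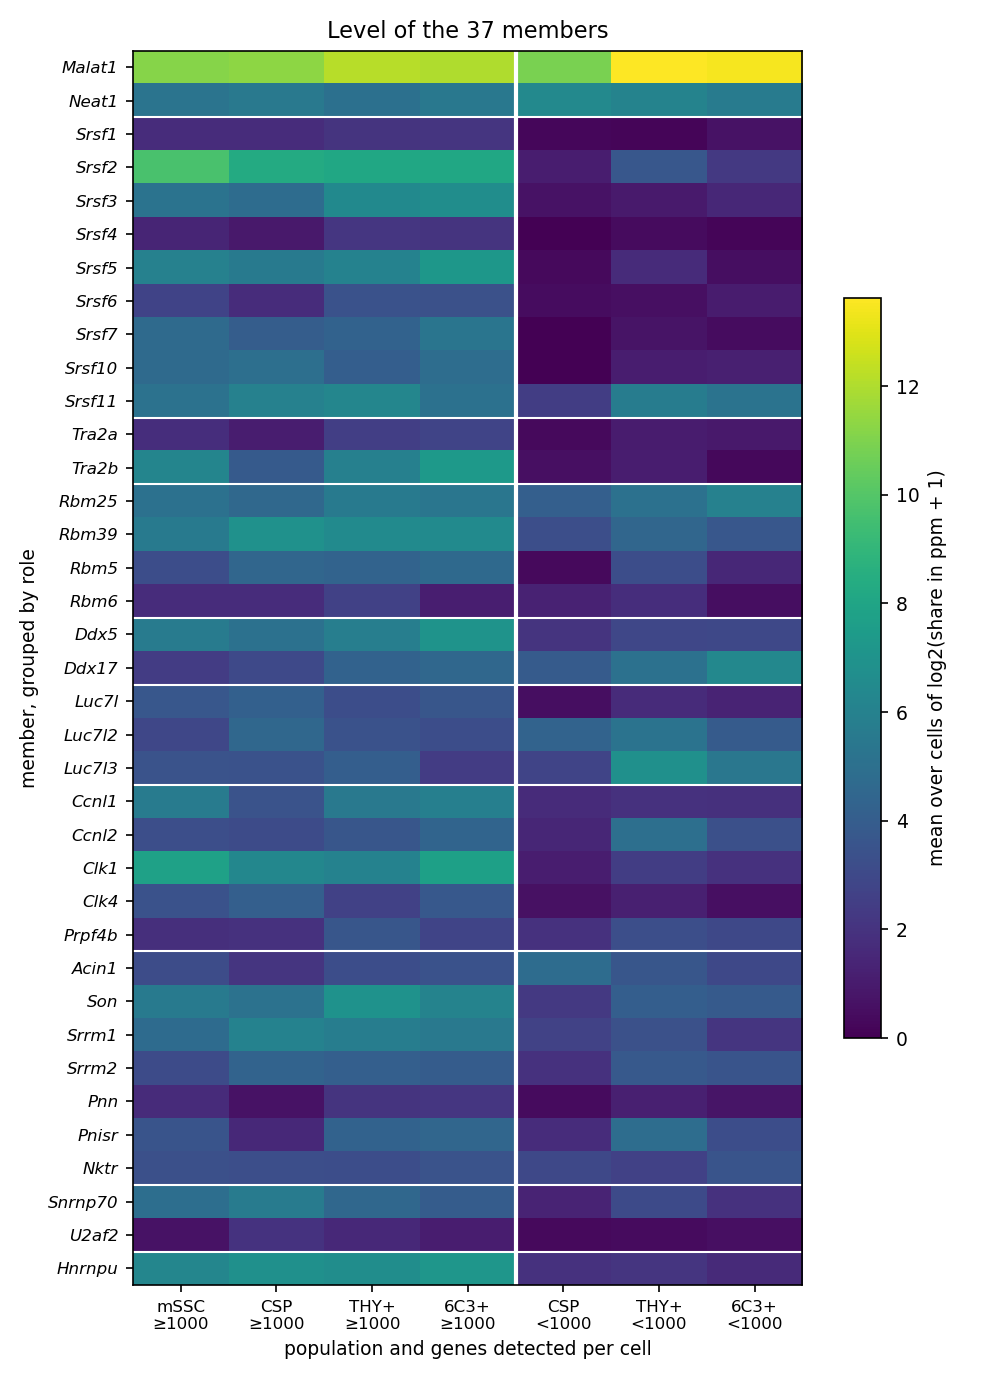
Mean over cells of log2(share in ppm + 1) for the 37 members (rows, grouped by role) in the 7 groups of cells (columns, left of the white line at least 1000 genes, right of it below 1000). Malat1 is the brightest row in all columns; most SR protein rows are dark to the right of the line, with means below 2 in gene-poor CSP cells for all of them except Srsf11.

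Populations were compared over gene-rich cells by the difference of mean log2(share in ppm + 1), which understates the change of low genes; a gene was called at a difference of at least 1 (2-fold). Genes seen in 10% or more of the pooled cells of a pair were tested, and all 37 members passed in each of the 6 comparisons. The comparisons share populations, so they are not independent of each other. Against mSSC, CSP cells had 6 members higher and 8 lower, where 21.7% of all genes compared were higher and 9.29% lower. The median difference was -0.03 over the members and 0.16 over all genes. The 6 largest member differences were Tra2b (-2.32), Ccnl1 (-2.16), Pnisr (-1.96), Luc7l2 (1.65), Clk1 (-1.44) and Srsf2 (-1.38). The other members called higher were Rbm39, Rbm5, Srrm1, Srrm2 and U2af2, and the others lower Srsf6, Acin1 and Pnn. With the split at 2000 genes 2 members were higher (26.02% of all genes), and on the FPKM as deposited 1 was (15.9%).

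THY+ cells had 7 members higher and 2 lower than mSSC (14.4% and 9.09% of all genes), with a median of 0.53 over members and 0.22 over all genes. Ddx17 (1.89), Prpf4b (1.81), Son (1.36) and Srsf3 (1.29) led the higher ones, followed by Srsf11, Rbm5 and Malat1 (1.02). Clk1 (-1.76) and Srsf2 (-1.60) were the lower ones. The first 2 index rows had a lower spike-in median than the other rows, with overlapping ranges. Without their cells 17 members were higher and 1 lower (15.1% and 14.03% of all genes). In 6C3+ cells 8 members were higher and 2 lower than in mSSC (17.4% and 7.13%), with medians of 0.52 and 0.26. Ddx17 (2.15), Srsf3 (1.52), Rbm5 (1.42), Ddx5 (1.31) and Srsf5 (1.26) had the largest positive differences, with Ccnl2, Tra2a and Tra2b (1.12) also higher. Srsf2 (-1.60) and Luc7l3 were lower. On the FPKM as deposited, not rescaled to shares, the Tra2b difference turned to -0.15 and 0 members were higher and 8 lower in 6C3+ than in mSSC (5.35% and 15.98% of all genes), where the median over all genes was -0.16. Ribosomal protein genes, measured for comparison, had a median of -1.26 in THY+ and -0.55 in 6C3+ against mSSC, and 15 dissociation stress genes -1.55 and -1.36.

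Against CSP, THY+ cells had 13 members higher and 3 lower (17.3% and 20%), and 6C3+ cells 15 higher and 3 lower (18.5% and 18.1%). The median over members was 0.40 in THY+ (0.10 over all genes) and 0.67 in 6C3+ (0.12 over all genes). Leading by size were, in THY+ Pnisr (2.74), Tra2b (2.06) and Ccnl1 (2.02), and in 6C3+ Tra2b (3.44), Pnisr (2.96) and Ccnl1 (2.37). Both comparisons use the same 11 CSP cells. Next in THY+ came Son (1.78), Prpf4b (1.72) and Srsf6 (1.69), and in 6C3+ Ddx5 (1.94), Srsf3 (1.90) and Tra2a (1.72). Lower than in CSP were Luc7l2, Snrnp70 and Clk4 in THY+, and Luc7l2, Luc7l3 and Snrnp70 in 6C3+. Between the last pair, 6C3+ had 6 members higher than THY+ and 3 lower (9.19% and 5.75%), with medians of 0.21 over members and 0.05 over all genes. Clk1 (1.73), Tra2b (1.38), Srsf5 (1.17), Ddx5 (1.17), Srsf7 and Clk4 were the higher ones, and Luc7l3 (-1.61), Rbm6 (-1.48) and Srsf11 (-1.17) the lower. Without the first 2 index rows the counts were 2 higher and 7 lower (16.96% and 7.24% of all genes).

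Within a population, gene-poor cells were set against gene-rich ones. Most genes compared were lower in gene-poor cells on this scale. The classes were split on the number of genes detected, so lower means for most genes follow largely from the split itself. Genes were kept on detection over the pooled cells of both classes, so a gene could be compared on its gene-rich cells alone. How far the lower counts and negative differences given here and below go beyond this was not tested. In CSP 1 member was higher and 23 lower of the 35 compared, where 0.514% of all genes were higher and 83.9% lower. In THY+ 5 were higher and 22 lower of 37 (0.487% and 66.3%), and in 6C3+ 3 were higher and 24 lower of 37 (0.215% and 90.1%). These shares helped to draw up the list, so the counts are given beside the background and nothing is read from them. The median difference over members was -2.42 in CSP, -1.49 in THY+ and -1.89 in 6C3+, against -2.08, -1.35 and -2.20 over all genes. With the log2 of the mean share in place of the mean log2, which lets the few highest cells count more, 14 members were higher and 11 lower in THY+ (13.4% and 66.8% of all genes), 15 and 7 in 6C3+ (15.1% and 57.04%), and 6 and 17 in CSP (7.85% and 82%). With the mean log2 the members' differences ran from -7.26 to 2.72 in CSP, from -5.46 to 2.79 in THY+ and from -6.98 to 2.95 in 6C3+.

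The noncoding RNAs were at the upper end. Malat1 shares in gene-poor THY+ cells were 0, 27199 and 113346 ppm (lowest, median, highest) and in gene-poor 6C3+ cells 52.3, 32628 and 187427. It was detected in 28 of 29 and 55 of 58 cells, and in 15 of 15 gene-poor CSP cells, whose shares were 56, 2006 and 13050.2. The gene-poor range enclosed the gene-rich one in all 3 populations. The difference was 1.45 in THY+, 1.46 in 6C3+ and -0.40 in CSP as a share, but on the FPKM as deposited it turned to -2.90 in THY+ and -3.53 in 6C3+ and was -4.66 in CSP, while the median of all genes there was -1.49, -1.81 and -2.01. Neat1 differed by 1.08 in THY+, 0.19 in 6C3+ and 0.91 in CSP, and was detected in 16 of 29, 31 of 58 and 10 of 15 gene-poor cells.

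Luc7l3 was the coding member with the highest difference in THY+ and 6C3+. In gene-poor THY+ cells its shares were 0, 186 and 4779 ppm and in gene-poor 6C3+ cells 0, 127 and 5297, against gene-rich medians of 20.5 and 1.26. In 6C3+ it was detected in 29 of 58 gene-poor cells (50%, 36.6 to 63.4), a higher proportion than in gene-rich ones, though the intervals overlapped. On the FPKM as deposited its differences of 2.79 and 2.95 turned to -0.66 and -0.28, and without the first 2 index rows the THY+ one was 1.62. Luc7l2 (1.76) and Ccnl2 (1.35) were the other coding members called higher in THY+, and Ddx17 (1.81) in 6C3+. Ddx17 shares in gene-poor 6C3+ cells were 0, 196 and 36312 ppm, with 34 of 58 cells detected. In CSP the 1 member higher was Acin1 (2.72), detected in 9 of 15 gene-poor cells (60%, 32.3 to 83.7) at shares of 0, 57.6 and 1199.9, and in 4 of 11 gene-rich ones at 0, 0 and 357; 1700123O20Rik and 4930579G18Rik overlap its exons on the other strand.

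The SR protein genes Srsf2, Srsf3 and Srsf5, with Tra2b, Clk1 and Hnrnpu, stood at the lower end. Srsf11, another gene of that group, had medians of 116 ppm in gene-poor and 65.7 in gene-rich 6C3+ cells. Its medians were 98.1 and 144 in THY+ and 0 and 136 in CSP cells. Srsf2 shares had a median of 0 in all 3 gene-poor groups, with highest cells at 325 (CSP), 2732 (THY+) and 29442 (6C3+) ppm, and differences of -7.26, -4.39 and -5.87. Srsf5 differed by -5.32, -4.37 and -6.69, and Srsf3 by -4.16, -5.46 and -5.20. Srsf3 went from 39 of 43 gene-rich to 2 of 29 gene-poor THY+ cells detected, and Tra2b from 30 of 34 to 2 of 58 6C3+ cells. Both were thus compared mainly on their gene-rich cells. The Tra2b differences were -3.31, -4.82 and -6.98, those of Clk1 -5.22, -3.57 and -5.80, and those of Hnrnpu -4.88, -4.63 and -5.51. Srsf10 (-4.96) and Snrnp70 (-4.33) were also among the 6 largest in CSP, and Ccnl1 (-3.61) in THY+. On the FPKM as deposited 35 of 37 members were lower in gene-poor THY+ cells, where 73.4% of all genes were, and 0 members were higher in any of the 3 populations, where at most 0.119% of all genes were.

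**Figure D3:**
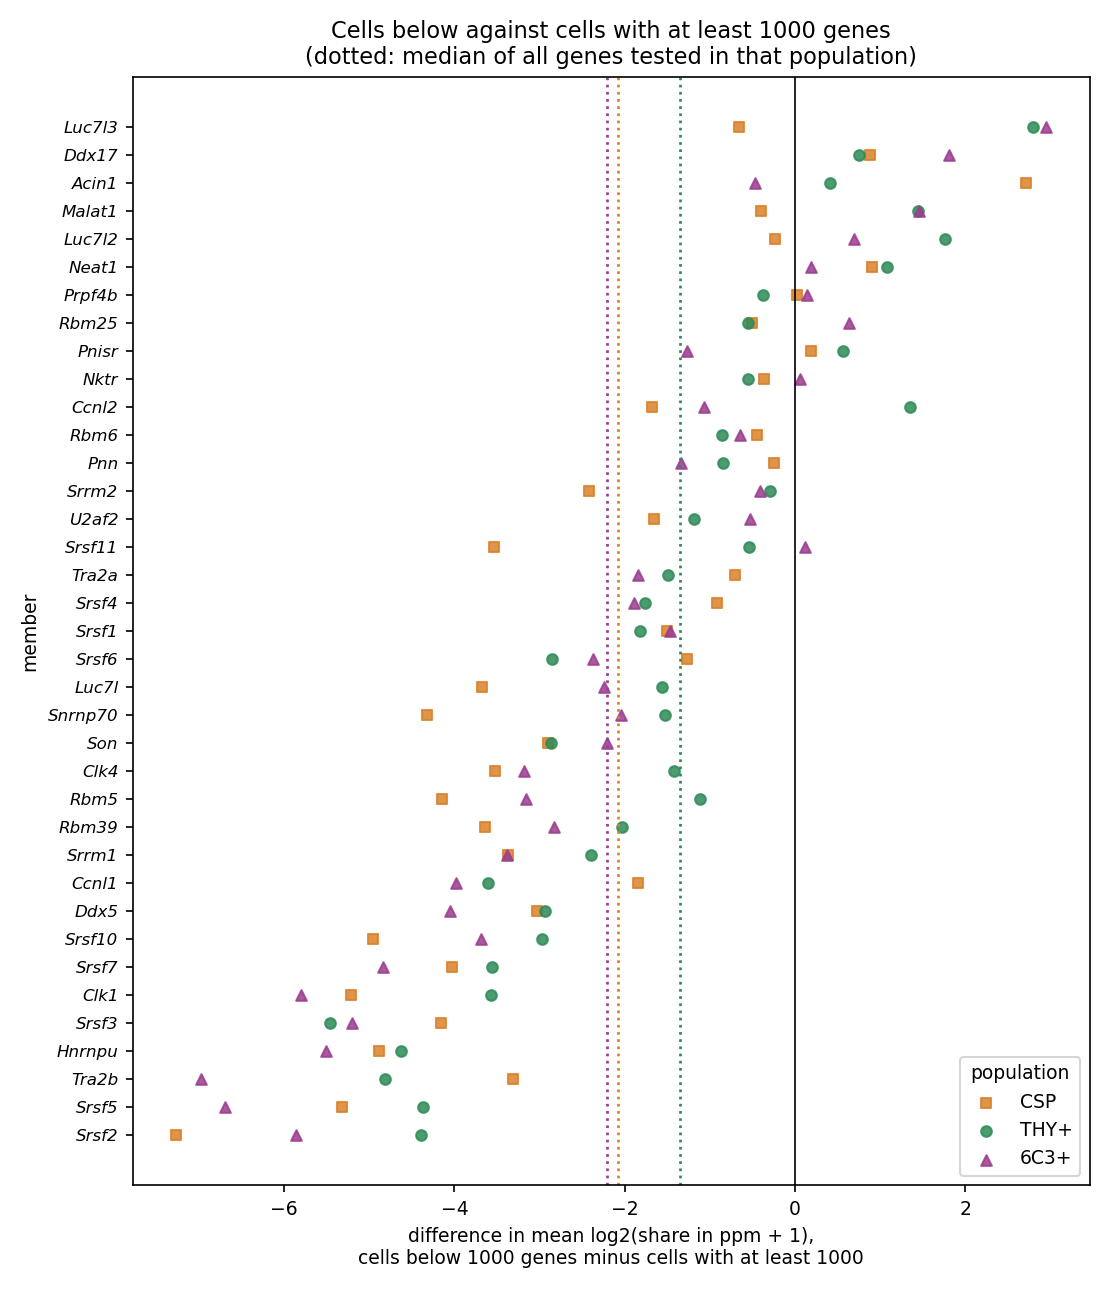
Difference in mean log2(share in ppm + 1), gene-poor minus gene-rich cells, for each member in CSP (squares), THY+ (circles) and 6C3+ (triangles); dotted lines are the medians of all genes compared in each population. Luc7l3, Ddx17, Acin1 and Malat1 are at the top, up to 2.95, and Srsf2, Srsf5 and Tra2b at the bottom, down to -7.26.

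Detection was counted as well. Gene-poor cells were defined by few detected genes, so lower detection of most genes in them is built in. Among genes seen in 50% or more of a population's gene-rich cells, the median gene was detected in 6.67% of gene-poor CSP cells, 10.3% of THY+ and 5.17% of 6C3+ cells (2086, 1598 and 1705 genes). For the members among them the medians were 20% (26 members), 34.5% (31) and 22.4% (31). This is a measure of the same cells that served to draw up the list and is a description. Malat1 was ranked 1 in all 3 populations, at 100%, 96.6% and 94.8%. After it came Neat1 (66.7%) and Rbm25 (60%) in CSP, Luc7l3 (69%) and Ccnl2 (58.6%) in THY+, and Ddx17 (58.6%), Neat1 and Rbm25 (53.4% each) in 6C3+. Of all such genes 2.01%, 3.19% and 1.35% were detected in at least 50% of the gene-poor cells, and 3, 7 and 5 members were among them.

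**Figure D4:**
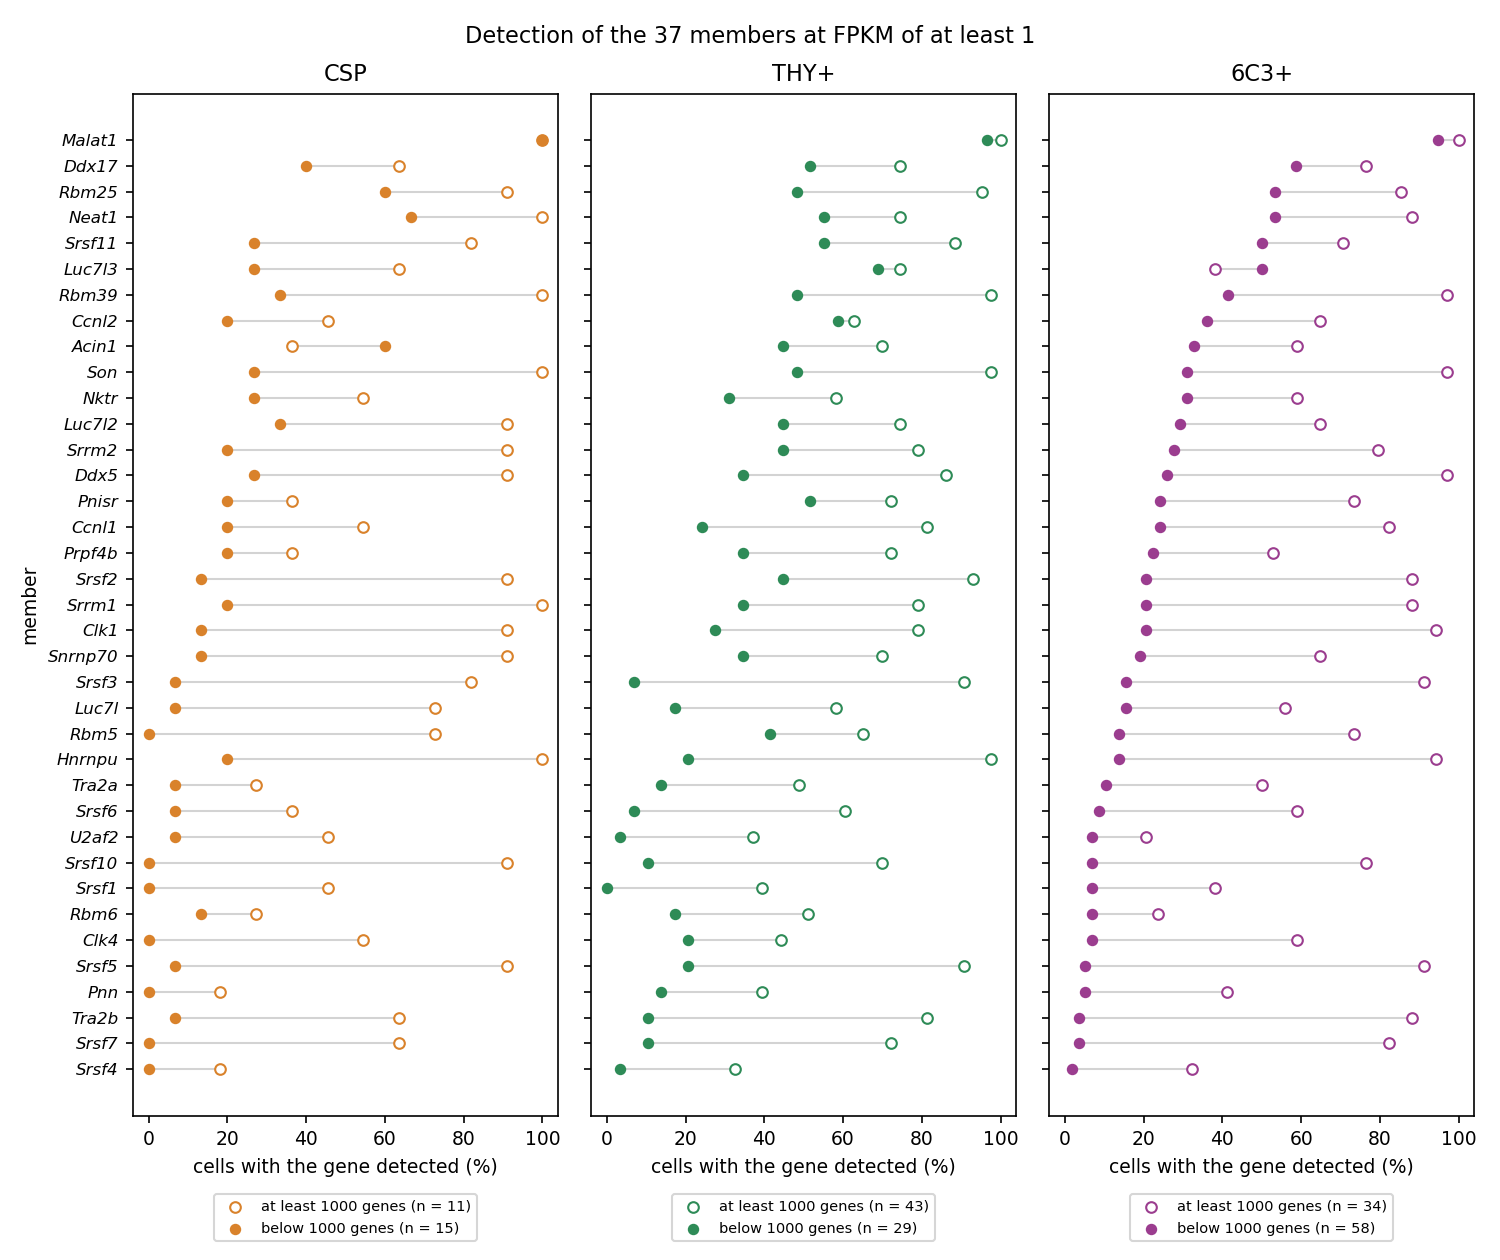
Percent of cells with each member detected at FPKM of at least 1, in gene-rich (open) and gene-poor cells (filled) of CSP, THY+ and 6C3+; members are ordered by the gene-poor 6C3+ value. Malat1 stays at 94.8% or more, Luc7l3 in 6C3+ and Acin1 in CSP are the members whose filled point lies to the right, and Srsf4 and Srsf7 are at most 10.3% in gene-poor cells.

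The amount of spike-in RNA gives a second scale in THY+ and 6C3+ cells, where spike-ins were abundant. Relative to the spike-in FPKM of the cell, the summed endogenous FPKM had a median 132-fold lower in gene-poor than in gene-rich THY+ cells and 113-fold lower in 6C3+. Malat1 on that scale was 18.3-fold lower in THY+ and 16-fold lower in 6C3+, Neat1 59- and 48.7-fold, and Ddx17 86.8- and 17.2-fold. Luc7l3 was 3.65-fold lower in THY+, and in 6C3+ the gene-rich median was 0.573 times the gene-poor one. Those 6C3+ medians were near 0, at 0.000486% and 0.000847% of the spike-in FPKM. The highest 6C3+ cells went the other way, with 5.31% in gene-rich and 0.0253% in gene-poor cells. The medians of Srsf2, Srsf3, Tra2b and Hnrnpu were at 0 in gene-poor cells, so no fold is given. Without the first 2 index rows the endogenous total was 65.2-fold lower in THY+ and 121-fold in 6C3+, and Malat1 11.8- and 12.3-fold. Neat1 was then 147-fold lower in THY+, more than the total, and 25-fold in 6C3+, Ddx17 21.7- and 13.1-fold, and Luc7l3 13.2-fold in THY+, while in 6C3+ its gene-rich median was 0.888 times the gene-poor one. Rbm25 was 370.3-fold lower in THY+ and 14.4-fold in 6C3+ with all cells, and 165- and 13.5-fold without those rows. Srsf11 was 97.7-fold lower in THY+ and 119-fold in 6C3+ with all cells, and 72.1- and 391-fold without those rows. In 6C3+ cells Srsf11 was thus lower by more than the endogenous total in either setting.

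The share of Malat1 in gene-poor cells also went with the index row, a position on the index plate. In gene-poor 6C3+ cells it had a median of 0.238% in the 16 cells of the first 2 index rows and 4.21% in the 42 cells of the other rows, with ranges of 0.00812% to 7.14% and 0.00523% to 18.7% that overlapped. The spike-in median was 73.6% and 97.0% in the same cells. In gene-rich THY+ cells the Malat1 medians were 0.395% (20 cells) and 0.586% (23 cells), and the summed member share was 0.827% and 1.24%. Spike-in medians were 7.18% and 35.5%, with overlapping ranges of 0.408% to 37.8% and 10.95% to 87.7%. The first 2 rows also differed from each other, at 1.36% or less in S502 and 1.62% to 37.8% in S503. Without these rows the Malat1 difference of gene-poor from gene-rich cells was 2.51 in 6C3+ and 0.87, under the 2-fold call, in THY+. The part of row, spike-in amount and gene number in these values was not tested.

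**Figure D5:**
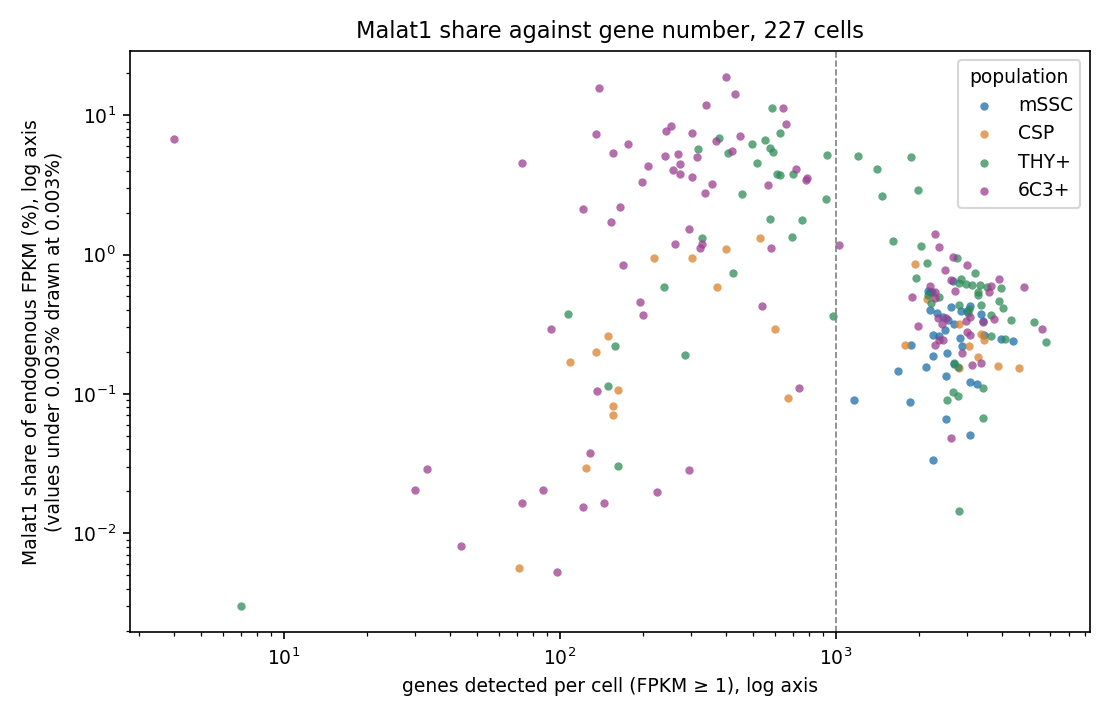
Malat1 share of endogenous FPKM (percent, log axis) against genes detected per cell (log axis) in every cell of the study, coloured by population; the dashed line is the split at 1000 genes. Gene-poor THY+ and 6C3+ cells reach 11.3% and 18.7%, gene-poor CSP cells stay at or below 1.31%, and the lowest gene-poor 6C3+ cell is at 0.00523%.

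Other parts of the splicing machinery were counted in the same way from lists of their own. Of all genes compared, 83.9% (CSP), 66.3% (THY+) and 90.1% (6C3+) were lower in gene-poor cells and 0.514%, 0.487% and 0.215% higher. Such a fall of most genes follows largely from the split on gene number. The counts below stand beside these shares and are not read apart from them. In gene-poor against gene-rich cells the Sm and U snRNP proteins were lower in 18 of 18 (CSP), 17 of 17 (THY+) and 17 of 17 (6C3+) genes compared, with medians of -3.94, -2.44 and -2.99. Of the SF3 and U2 factors 11 of 12, 12 of 12 and 11 of 11 were lower, of hnRNP proteins other than Hnrnpu 15 of 17, 14 of 18 and 16 of 17, and of PRP and catalytic proteins 9 of 12, 9 of 16 and 7 of 9. No gene of these 4 lists was higher in any of the 3 populations, where at most 0.514% of all genes were. Snrpg, a Sm core protein, had medians of 668, 471, 765 and 623 ppm in gene-rich mSSC, CSP, THY+ and 6C3+ cells and 0 in the gene-poor groups. Ribosomal protein genes were lower in 83 of 83, 84 of 84 and 82 of 82, with medians of -8.02, -6.54 and -7.79, and 10 housekeeping mRNAs in 10 of 10 each, with medians of -6.99, -6.26 and -6.59. Of other nuclear or noncoding transcripts 1 gene, Meg3, was higher in each population, and 6 of 7, 4 of 8 and 6 of 8 were lower, with medians of -1.90, -1.64 and -2.35. Gas5, a snoRNA host gene of that list, differed by -6.38, -4.14 and -4.16, with a median of 0 in each gene-poor group. Meg3, an imprinted noncoding RNA, had medians of 29, 418 and 265 ppm in gene-rich and 226, 3219.6 and 1519.8 in gene-poor CSP, THY+ and 6C3+ cells. Of the paraspeckle proteins 3 of 4, 4 of 4 and 4 of 4 genes compared were lower and 0 higher, with median differences of -2.30, -1.62 and -2.89. Exon junction complex genes were lower in 5 of 6, 5 of 6 and 5 of 5, and 0 were higher. Sfpq, a paraspeckle protein, had median shares of 175, 225 and 339 ppm in gene-rich and 195, 211 and 0 in gene-poor cells.

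Annotated features of the members are given as descriptions. They are not independent of the choice, since many genes of SR and related proteins make intron-keeping or decay forms, as said above. Length also went with the difference known when the list was drawn up, as given below. In the GENCODE annotation of GRCm38, a transcript with a retained intron is listed for 32 of 35 coding members (91.4%), against 64.9% of the 7479 coding genes detected in at least 10% of gene-rich cells. A transcript marked for nonsense-mediated decay is listed for 32 of 35 (91.4%), against 30.5%. Ddx17 and Srsf10 have neither, while Acin1 lacks only a decay form and Pnisr only a retained intron. Members also have more annotated transcripts (median 10, against 6) and longer exons in sum (median 7523 bases, against 4733). Longer genes had higher differences of gene-poor from gene-rich cells, over all genes (Spearman rho 0.32 in CSP, 0.31 in THY+ and 0.39 in 6C3+) and over the members (0.35, 0.33 and 0.36). These correlations are across genes, which are not independent replicates, and FPKM is itself divided by length. The members lie on 15 chromosomes.

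Promoter windows of 300 bases around the transcription start are in the RefSeq table of GRCm38.p6 for 32 of the 37 members, 43 promoters in all; Clk1, Neat1, Pnisr, Luc7l and U2af2 were not matched. Their median CpG count was 28 per 300 bases, against 22 in promoters of genes seen in 10% or more of gene-rich cells and 7 in all promoters. The 4 letter strings below were searched on both strands. TTCCGG, the core bound by ETS factors, was in 19 of 43 member promoters (44.2%), 28.8% of promoters of detected genes and 14.9% of all. GGGCGG (GC box) was in 55.8%, 66% and 35.7%, TGACG (part of the CRE) in 41.9%, 33% and 20.8%, and TATAAA in 11.6%, 7.18% and 13.6%. A match is a description of letters only. Shown here, 5′ to 3′ with TTCCGG or its reverse complement CCGGAA in capitals, are the promoters of members at both ends of the gene-poor against gene-rich difference: Srsf2 (chr11:116853045-116853344, minus strand) and Srsf5 (chr12:80945249-80945548, plus strand) at the lower, Ddx17 (chr15:79546692-79546991, minus strand, the upstream of 2) and Luc7l3 (chr11:94321914-94322213, minus strand) at the upper.
Srsf2: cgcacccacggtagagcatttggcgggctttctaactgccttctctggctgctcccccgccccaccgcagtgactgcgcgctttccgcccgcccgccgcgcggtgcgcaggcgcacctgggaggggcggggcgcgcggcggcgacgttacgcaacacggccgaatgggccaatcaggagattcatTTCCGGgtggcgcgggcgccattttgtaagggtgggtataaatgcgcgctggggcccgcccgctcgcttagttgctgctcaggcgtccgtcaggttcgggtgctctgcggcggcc
Srsf5: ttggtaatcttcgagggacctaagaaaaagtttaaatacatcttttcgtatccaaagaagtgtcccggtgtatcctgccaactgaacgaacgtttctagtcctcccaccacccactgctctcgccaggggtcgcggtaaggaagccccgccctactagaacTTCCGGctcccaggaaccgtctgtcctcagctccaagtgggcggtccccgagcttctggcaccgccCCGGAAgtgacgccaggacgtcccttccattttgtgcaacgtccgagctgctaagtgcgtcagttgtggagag
Ddx17: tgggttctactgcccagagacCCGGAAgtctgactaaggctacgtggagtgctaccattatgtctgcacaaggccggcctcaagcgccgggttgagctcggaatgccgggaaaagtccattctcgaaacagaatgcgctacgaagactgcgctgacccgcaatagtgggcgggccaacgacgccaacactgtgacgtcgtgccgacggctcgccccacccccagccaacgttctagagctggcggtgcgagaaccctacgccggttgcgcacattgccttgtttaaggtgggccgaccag
Luc7l3: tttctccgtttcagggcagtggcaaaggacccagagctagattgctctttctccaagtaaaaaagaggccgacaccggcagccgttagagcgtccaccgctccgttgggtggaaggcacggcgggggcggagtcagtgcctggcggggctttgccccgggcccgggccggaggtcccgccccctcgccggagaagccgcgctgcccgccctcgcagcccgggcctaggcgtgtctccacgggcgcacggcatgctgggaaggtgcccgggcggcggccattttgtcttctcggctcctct
The core is present 1 time in the Srsf2, 2 times in the Srsf5 and 1 time in the Ddx17 window, and these letters are not in the Luc7l3 window.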

How the data were processed

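Single cells were captured on the Fluidigm C1 and sequenced from SMARTer cDNA (Nextera XT libraries, ERCC spike-ins added), per the labels' protocols. The deposited values are FPKM, 1 table of 24388 genes and 92 spike-ins for 227 cells. The build mm10 and SAMtools are named, without a role, per the submitters' processing notes. Which aligner, FPKM program, annotation and strand setting served is not given in the sources used here. Low FPKM values, looked at in a few pairs of cells, showed no steps of whole reads, so depth per cell is unknown.

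Columns were matched to cells by index names in the labels, with 0 left unmatched and 0 identical pairs. Spike-in rows were dropped and each cell was rescaled to shares, in percent or in ppm (parts in 1000000). Comparisons used the mean of log2(share in ppm + 1), genes with FPKM of at least 1 in 10% or more of a pair's pooled cells, and a 2-fold call, with no test since each population is 1 sample. The script was run on cells of single populations split at random, with known shifts put into some genes. Only the direction of those shifts was checked. Genes past 2-fold between the random parts without shifts were also counted. That count is not given here, so no noise level stands beside the 2-fold calls. Members and gene lists were chosen with earlier results of these data known. Values are given in full for Malat1, Neat1, the leading member of each role and the 6 largest differences per comparison, for at most 4 genes of other lists, and for the genes most like Malat1 across cells. The annotation used for coordinates is GENCODE vM21 and promoters are RefSeq, both GRCm38; protein sequences were not used here. Alternatives covered the split, denominator, pseudocount, scale, filter, fold and detection threshold; leaving out index rows, cells under 100 genes or rows under 200 bases was chosen after seeing the data. The tools were pandas 2.3.3, numpy 2.4.6, scipy 1.17.1, matplotlib 3.10.9 and Python 3.11.15.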

Additional observations from a re-analysis of the deposited data

How the results depend on the processing

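Summed shares stayed within 1 SD over cells in 77 of 81 alternative values and Malat1 shares in 67 of 67. For Malat1 this SD was above the median share in gene-poor THY+ (2.91 and 2.72%) and 6C3+ cells (4.20 and 3.26%). A share of 0 would have counted as unchanged there, so these counts say little about stability. Counts of members stayed within 1.5 times in 132 of 206. Some of these counts could not move. All 37 members already passed the filter between populations, so leaving it out changed no count there. Gene-poor CSP cells had at most 670 genes and gene-rich ones at least 1785, so splits at 750 and 1500 left both groups as they were. Differences of single members were followed for Malat1, Luc7l3, Clk1 and Tra2b only. Of these 340 values 36 moved and 5 turned direction. Turning was counted only where the difference as reported was at least 2-fold. No paired analysis was possible because the labels give no replicate numbers and each population is 1 sample. Differences that turned did so on the FPKM as deposited: Tra2b in 6C3+ against mSSC (-0.15), and gene-poor against gene-rich Malat1 (-2.90 in THY+, -3.53 in 6C3+) and Luc7l3 (-0.66 and -0.28). Counts of members that moved are given here with the share of all genes compared that was called in that direction under the same setting in parentheses; gene-poor stands for gene-poor against gene-rich cells. With the split at 2000 genes there were 2 higher (26.02%) in CSP against mSSC, 5 lower (7.88%) in THY+ against mSSC and 5 higher (17.6%) and 1 lower (7.87%) in 6C3+ against mSSC. There were also 1 lower (20.9%) in THY+ against CSP and 1 lower (20.7%) in 6C3+ against CSP. With a pseudocount of 0.1 ppm there were 16 higher (27.5%) in THY+ against mSSC, 14 higher (30%) and 4 lower (12.3%) in 6C3+ against mSSC and 6 lower (27.8%) in THY+ against CSP. There were also 6 lower (26.8%) in 6C3+ against CSP. With 10 ppm there were 0 higher (7.896%) and 5 lower (2.94%) in CSP against mSSC, 3 higher (3.83%) in THY+ against mSSC and 2 higher (5.25%) and 1 lower (2.96%) in 6C3+ against mSSC. There were also 5 higher (5.29%) and 1 lower (9.24%) in THY+ against CSP, 8 higher (6.08%) and 0 lower (7.96%) in 6C3+ against CSP and 3 higher (2.71%) and 0 lower (1.09%) in 6C3+ against THY+. The same setting gave 3 higher (0.316%) in gene-poor CSP and 14 lower (30.6%) in gene-poor THY+. On the FPKM as deposited there were 1 higher (15.9%) in CSP against mSSC, 2 higher (10.9%) in THY+ against mSSC and 0 higher (5.35%) and 8 lower (15.98%) in 6C3+ against mSSC. There were also 1 lower (17.1%) in THY+ against CSP, 4 higher (8.497%) and 9 lower (23.5%) in 6C3+ against CSP and 0 higher (1.99%) and 10 lower (11.2%) in 6C3+ against THY+. The same setting gave 0 higher (0.119%) in gene-poor CSP, 0 higher (0.0471%) and 35 lower (73.4%) in gene-poor THY+ and 0 higher (0.0717%) in gene-poor 6C3+. With the log2 of the mean share there were 1 higher (17.8%) and 13 lower (35.8%) in CSP against mSSC, 12 higher (31.7%) in THY+ against mSSC and 4 higher (26.8%) and 1 lower (17.7%) in 6C3+ against mSSC. There were also 1 lower (15.5%) in THY+ against CSP, 0 lower (17.3%) in 6C3+ against CSP and 2 higher (17.7%) in 6C3+ against THY+. The same setting gave 6 higher (7.85%) in gene-poor CSP, 14 higher (13.4%) and 11 lower (66.8%) in gene-poor THY+ and 15 higher (15.1%) and 7 lower (57.04%) in gene-poor 6C3+. At 4-fold there were 0 higher (6.35%) and 2 lower (1.55%) in CSP against mSSC, 0 higher (2.63%) and 0 lower (2.64%) in THY+ against mSSC and 1 higher (3.37%) and 0 lower (1.73%) in 6C3+ against mSSC. There were also 3 higher (3.82%) and 0 lower (7.25%) in THY+ against CSP, 3 higher (4.38%) and 0 lower (6.15%) in 6C3+ against CSP and 0 higher (1.26%) and 0 lower (0.474%) in 6C3+ against THY+. The same setting gave 1 higher (0.0785%) and 14 lower (30.7%) in gene-poor THY+ and 1 higher (0.0956%) in gene-poor 6C3+. Without the first 2 index rows there were 17 higher (15.1%) and 1 lower (14.03%) in THY+ against mSSC, 1 lower (7.96%) in 6C3+ against mSSC and 2 higher (16.96%) and 7 lower (7.24%) in 6C3+ against THY+. There were also 2 higher (0.331%) in gene-poor THY+ and 6 higher (0.355%) in gene-poor 6C3+. Without cells under 100 genes there were 3 higher (0.613%) in gene-poor CSP. Without rows under 200 bases there were 2 higher (0.574%) in gene-poor CSP. Without rows under 200 bases the summed share of gene-poor CSP cells was 1.14% (0.375% as reported). Spike-ins in the denominator brought the summed share of gene-poor THY+ cells to 0.107%. In gene-poor 6C3+ cells (spike-in median 96.3%) a fall could not count as moved. There the SD over cells (4.84%) was above the median summed share (4.18%). Without Malat1 the gene-rich sum was 0.604% in mSSC and 0.552% in 6C3+. Detection at FPKM of at least 10 lowered the mean number of members detected from 24.5 to 19.8 in mSSC, 25.2 to 18.5 in CSP, 26.6 to 20.5 in THY+ and 26 to 18.6 in 6C3+ gene-rich cells, and from 7.67 to 2.80, 12 to 5.93 and 8.98 to 2.93 in gene-poor CSP, THY+ and 6C3+ cells. The cause of these changes was not tested. Depth in reads is unknown, so a value of 0 sets no upper limit on a member's level.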
